A study of Mus musculus with 33 samples.

Results

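P19 is a mouse embryonal carcinoma cell line that can be steered toward different lineages, and the change of its treatment response between day 3 and day 6 of differentiation is described here. For each gene, the difference between retinoic acid (RA) and dimethyl sulfoxide (DMSO) was taken at day 6, and the same difference at day 3 was subtracted from it. This value, on the log2 scale of the deposited table, is called the interaction. The members are the 14706 genes of the nuclear genome, of 14717 in the table. Only the 11 mitochondrial genes were left out, and no expression filter was applied here. All 14717 genes of the deposited table reached 1 CPM in at least 3 libraries, which can be those of 1 group alone. The comparison was chosen with earlier results of these data known. The 12 libraries used come from 4 groups of 3. D6RA and D3RA are cells at days 6 and 3 of differentiation in 1 µM all-trans RA, and D6DMSO and D3DMSO are their counterparts in 1% DMSO. In all 4 groups the cells first formed embryoid bodies over 2 days in bacteriological dishes and were then moved to culture flasks with maintenance medium. Undifferentiated cells (D0, 3 libraries) entered only the estimate of the spread. The 18 chromatin samples of the 33 in the series were not analysed here. The groups model 1 cell line and hold whatever mixture of cells the embryoid bodies gave. The submitters describe the 3 libraries of each group as biological replicates, but no label places them in separate cultures. The p-values therefore measure the variation among these libraries, and part or all of it may be technical.

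RA is a vitamin A derivative that enters cells, binds nuclear RA receptors and switches on genes such as those of the Hox clusters and the Cyp26 enzymes, which break RA down again. In P19 embryoid bodies RA is the standard route to neurons and glia, while DMSO is the standard route to mesoderm and cardiac and skeletal muscle. Cells on the mesodermal route are known to pass through a state like the primitive streak, marked by T, Tbx6 and Wnt genes, before they form heart, vessel and connective tissue cells. A gene can therefore differ between treatments early, late or on both days, and in the same or the opposite direction.

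Sequencing depth was 38.2 to 49.6 M counts per library in D6RA, 39.0 to 44.5 M in D6DMSO, 3.55 to 9.82 M in D3RA and 5.86 to 6.87 M in D3DMSO. Mitochondrial genes took 41.6 to 42.6% of the counts in D6RA, 49.8 to 55.8% in D6DMSO and 0% in all D3 libraries. Day and library depth or make-up therefore cannot be told apart in a comparison of D6 with D3 within 1 treatment. A shift of equal size in both treatments of a day cancels in the interaction, but not every effect of depth is such a shift. A count of 0 had a log2 value of 2.54 to 4.87 in D3RA and 3.14 to 3.71 in D3DMSO. It was 1 to 1.39 in D6RA and 1.42 to 1.49 in D6DMSO. This limits the day 3 differences of low genes more than those of day 6. The mitochondrial share at day 6 and the depth at day 3 were also not equal in the 2 treatments. In D3RA, 4 abundant features (Lars2, Gm15564 and 2 without a symbol, singled out after their values were seen) took 1.97% of the nuclear counts in replicate 1 and 39.5 and 45.7% in the other two replicates. In D3DMSO they took 3.09% in replicate 1 and 32.8 and 24.0% in the other two, so that this share went with the replicate number on day 3. They took at most 1.70% in either D6 group. Levels are given as CPM, that is, counts per 1 M counts of the scaled library size, which shows 1 gene across groups and is not comparable between genes of different length.

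Of the 14706 genes, 7138 (48.5%) had an interaction that passed the test, limma with a Benjamini-Hochberg adjusted p under 0.05, and these are referred to as called. The interaction was above 0 in 3739 of them (25.4% of all genes) and below 0 in 3399 (23.1%). It was at least 1 in size, which is 2-fold, in 3366 called genes, 1805 above 0 and 1561 below. Genes were then sorted into 3 classes by the sign and size of the 2 differences between group means of the log2 values. A difference that kept its direction and was larger at day 6 was widened (2528 called genes). One that kept its direction and was smaller was narrowed (1406). One that changed direction was reversed (3204). The reversed class was the largest among called genes, at 44.9% of them, and over all genes, called or not, it held 31.0%, against 38.9% widened and 30.1% narrowed. With all libraries thinned to the smallest one, 4717 genes were called, 1601 of them widened, 748 narrowed and 2368 reversed.

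Many reversals had 1 side that was itself within the error. Of the 3204, both differences were called in 1145 (7.79% of all genes; 664 genes with thinned counts), the day 6 difference alone in 1109, the day 3 difference alone in 848 and neither in 102. Of the 1145, 494 were lower with RA at day 3 and higher at day 6, and 651 were the other way round. In 256 of them both differences were at least 2-fold, 98 toward RA and 158 toward DMSO. The RA and DMSO libraries did not overlap on either day in 1000 of the 1145. Over all genes, 1416 (9.63%) were separated in opposite directions on the 2 days. Among the widened genes, the day 3 difference was already called in 1639 and was not called in 889. Among the narrowed genes, the day 6 difference was still called in 792 and was not called in 614. Across all 14706 genes the day 6 and day 3 differences, which share no library, had a Pearson correlation of 0.63 and a Spearman correlation of 0.545, as a description, since genes are not independent.

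**Figure D1:**
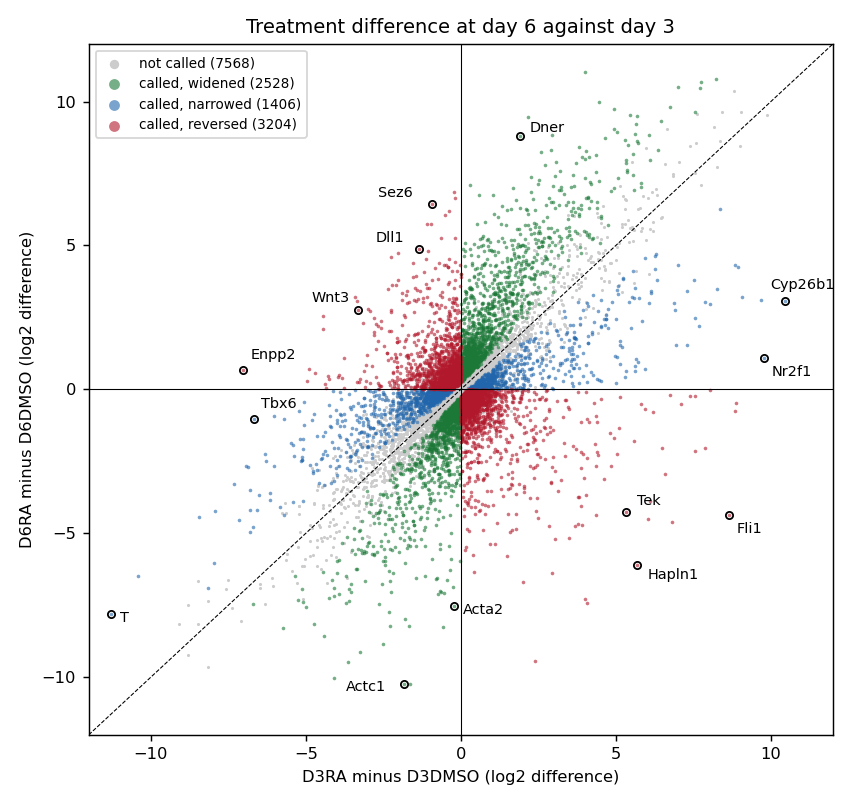
RA minus DMSO difference (log2) at day 6, on the vertical axis, against that at day 3, on the horizontal axis, for 14706 genes (1 point each), with 14 genes labelled. Coloured points are called in the interaction. The 3204 red points, which are reversed, fill the upper left and lower right, and genes on the dashed line differ equally on both days.

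How the level differed between the days in each treatment was read from the 2 comparisons of day 6 with day 3, called in the same fit. In both, day cannot be told apart from library depth or make-up. This holds for every later statement that an arm moved, rose or fell. Over all genes, D6RA was higher than D3RA in 37.2% and lower in 32.1%, and D6DMSO was higher than D3DMSO in 28.3% and lower in 28.1%. Most called genes in the widened and reversed classes had a called change in the RA arm. D6RA was higher than D3RA in 1142 of the 1416 genes widened with RA higher and in 1281 of the 1549 reversed to RA higher. It was lower than D3RA in 839 of the 1112 genes widened with RA lower and in 1301 of the 1655 reversed to RA lower. The DMSO arm moved the opposite way in fewer, D6DMSO being lower than D3DMSO in 553 and 636 genes of the first pair of classes and higher in 473 and 725 of the second pair. In the narrowed classes the arms were closer to even. Of the 632 genes narrowed with RA higher, D6DMSO was higher than D3DMSO in 357 and D6RA was lower than D3RA in 350. Of the 774 narrowed with RA lower, D6RA was higher than D3RA in 481 and D6DMSO was lower than D3DMSO in 379. These shares follow in part from the classes themselves and were not tested against each other.

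**Figure D2:**
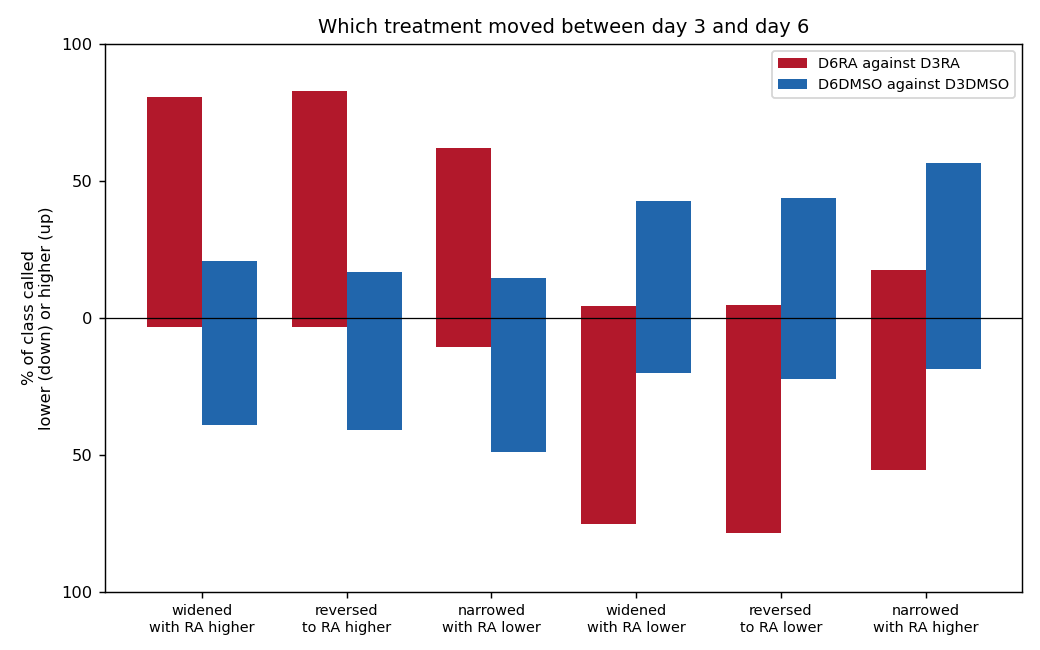
Percent of the called genes of each class (6 classes along the horizontal axis) whose level was called higher (bars up) or lower (bars down) at day 6 than at day 3, in RA (red) and in DMSO (blue). The RA bars reach 82.7% in the class reversed to RA higher, and the narrowed classes have the most even bars.

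Hapln1 and Tek showed the crossing of levels most plainly of the 4 marker genes chosen for this comparison. Hapln1 encodes a link protein that ties hyaluronan to proteoglycans in the extracellular matrix. It was at 1.32, 1.97 and 1.28 CPM in D6RA, 104, 112 and 93.9 CPM in D6DMSO, 68.3, 68.4 and 82.7 CPM in D3RA and 0.69, 2.46 and 1.39 CPM in D3DMSO. RA was thus the low group at day 6 and the high group at day 3, with no overlap on either day. The day 6 difference was -6.09 ± 0.31 (SE; limma adjusted p = 2.40e-11), the day 3 difference 5.68 ± 0.31 (SE; limma adjusted p = 1.05e-10) and the interaction -11.77 ± 0.44 (SE; limma adjusted p = 4.01e-12). Tek encodes the TIE2 receptor for angiopoietins on endothelial cells. It was at 0.695, 0.778 and 0.72 CPM in D6RA, 15.6, 12.7 and 14.8 CPM in D6DMSO, 27.3, 22.1 and 32 CPM in D3RA and 1.1, 0.205 and 0.774 CPM in D3DMSO. The groups again did not overlap on either day, and the interaction was -9.58 ± 0.48 (SE; limma adjusted p = 1.09e-10). In this mixture of cells, a lower level cannot be told apart as fewer cells of a type or less RNA per cell.

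Sez6 and Enpp2 were reversed toward RA, each with 1 side that did not pass the test. Sez6, a transmembrane protein of neurons, was at 49.2, 53.5 and 54.8 CPM in D6RA and 0.57, 0.798 and 0.438 CPM in D6DMSO, with 0.364, 0 and 0.457 CPM in D3RA and 0.829, 0.41 and 0.62 CPM in D3DMSO. Its RA libraries stood far above the DMSO libraries at day 6 and overlapped them at day 3. The interaction was 7.37 ± 0.58 (SE; limma adjusted p = 2.44e-08), and the day 3 difference was -0.94 ± 0.41 (SE; limma adjusted p = 0.0557). Enpp2 encodes autotaxin, the secreted enzyme that makes lysophosphatidic acid. It was at 12.4, 13.6 and 12.1 CPM in D6RA, 7.46, 9.11 and 7.35 CPM in D6DMSO, 0.546, 0.977 and 1.37 CPM in D3RA and 199, 78.6 and 150.1 CPM in D3DMSO. Its level in D3DMSO stood above those of the other 3 groups, and the day 6 difference was 0.68 ± 0.30 (SE; limma adjusted p = 0.0586). The interaction of 7.7 ± 0.43 (SE; limma adjusted p = 3.86e-10) therefore rests on the loss of a day 3 difference of -7.02 ± 0.30 (SE; limma adjusted p = 6.45e-12).

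**Figure D3:**
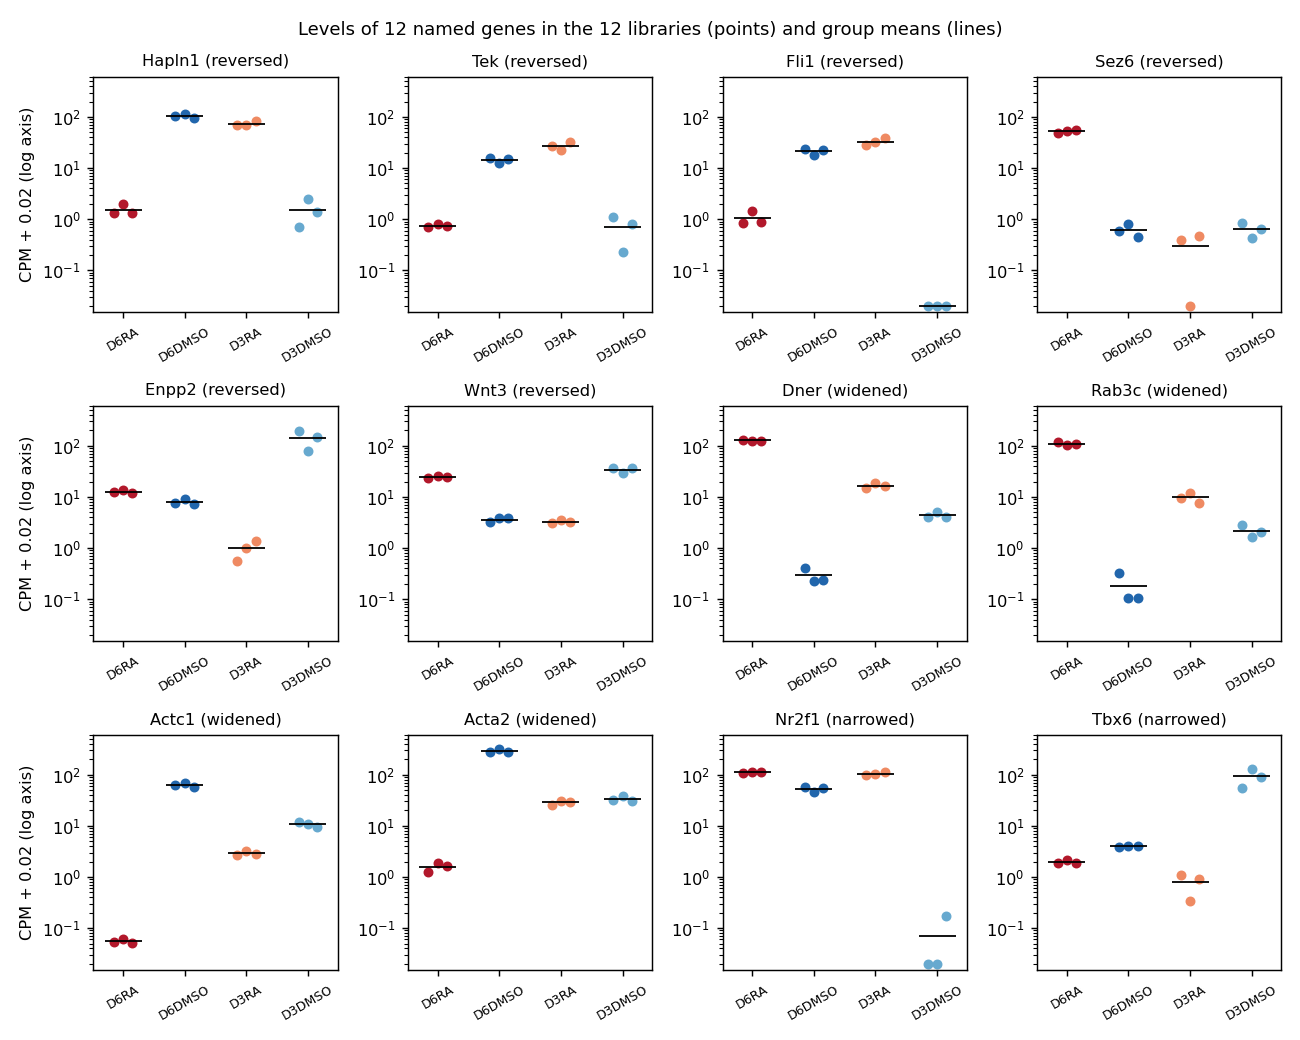
Level of 12 named genes in CPM (log axis, 0.02 added so that 0 can be drawn) in the 12 libraries, with D6RA, D6DMSO, D3RA and D3DMSO from left to right in each panel. Points are libraries and lines are means of 3. In Hapln1, Tek and Fli1 the high groups are D6DMSO and D3RA, whereas in Dner and Rab3c D6DMSO lies below D3DMSO.

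The promoters of Hapln1 and Tek, which crossed toward DMSO, and of Trim67 and Wnt3, which crossed toward RA, are shown as the letters from which these levels start. They were chosen after the values were seen. Each runs from 250 bases before to 50 after the annotated start, 5′ to 3′ on the plus strand, from RefSeq (GRCm38.p6, matched by symbol, with a promoter for 49 of the 58 named genes). Capitals mark matches on either strand to 5 motifs, the E-box CANNTG, the TATA box TATAAA, the GATA site AGATAA, the retinoid hexamer AGGTCA and the GC box GGGCGG.
Hapln1, chr13:89540386-89540685: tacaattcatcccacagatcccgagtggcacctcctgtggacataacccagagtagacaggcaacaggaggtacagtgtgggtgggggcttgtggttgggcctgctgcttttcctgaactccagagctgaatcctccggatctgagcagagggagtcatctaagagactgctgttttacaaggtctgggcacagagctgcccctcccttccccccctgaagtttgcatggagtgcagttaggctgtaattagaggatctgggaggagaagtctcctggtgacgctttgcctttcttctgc
Tek, chr4:94739039-94739338: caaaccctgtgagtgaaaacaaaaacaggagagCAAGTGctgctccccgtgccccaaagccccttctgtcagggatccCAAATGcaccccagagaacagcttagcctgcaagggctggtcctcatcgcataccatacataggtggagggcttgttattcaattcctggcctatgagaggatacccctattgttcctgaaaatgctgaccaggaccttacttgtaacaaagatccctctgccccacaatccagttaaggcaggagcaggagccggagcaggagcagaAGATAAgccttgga
Trim67, chr8:124792769-124793068: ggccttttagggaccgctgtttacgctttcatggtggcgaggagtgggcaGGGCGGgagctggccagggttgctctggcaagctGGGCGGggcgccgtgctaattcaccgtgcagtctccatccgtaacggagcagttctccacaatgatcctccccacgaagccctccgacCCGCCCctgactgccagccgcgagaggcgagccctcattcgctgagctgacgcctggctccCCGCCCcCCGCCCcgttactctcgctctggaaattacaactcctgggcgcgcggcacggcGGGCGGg
Wnt3, chr11:103773925-103774224: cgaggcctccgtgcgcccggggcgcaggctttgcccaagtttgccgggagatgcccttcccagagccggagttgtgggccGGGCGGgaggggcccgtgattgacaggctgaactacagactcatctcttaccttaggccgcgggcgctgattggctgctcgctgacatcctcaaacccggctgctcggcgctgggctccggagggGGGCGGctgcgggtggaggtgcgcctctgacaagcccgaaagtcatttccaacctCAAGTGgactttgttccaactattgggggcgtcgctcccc
The Hapln1 window held none of the 5 motifs. The Tek window held 2 E-boxes and 1 GATA site. The Trim67 window held 6 GC boxes, and the Wnt3 window held 2 GC boxes and 1 E-box. No window held the TATA box or the retinoid hexamer. Of 32851 promoters of the same length, 72.3% held an E-box, 35.7% a GC box, 16.3% a retinoid hexamer, 13.6% a TATA box and 11.2% a GATA site. The GC content was 54.3% for Hapln1, 52% for Tek, 67% for Trim67 and 65.7% for Wnt3, against a median of 52.7% over all of them. These matches describe the letters and say nothing about which factors bind.

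Endothelial and blood genes went over from higher with RA to higher with DMSO. Of the 26 measured members of that list, 25 were called below 0 (23.1% over all genes) and 0 above, with a median interaction of -5.11 against 0.04 over all genes. In 21 of them the class was reversed to RA lower (1655 of 14706 over all genes), and in 13 both differences were called (7.79% over all genes). At day 3 the RA group was called higher in 18 members and lower in 2 (62.1% of all genes were called, both directions together). At day 6 it was called higher in 0 and lower in 21 (65.8% of all genes, both directions together). Both arms moved, since D6DMSO was higher than D3DMSO in 23 members and D6RA was lower than D3RA in 21 (28.3 and 32.1% over all genes). Summed over the 4 endothelial markers Tek, Cdh5, Pecam1 and Emcn, all measured, the level was 11.5 to 15.9 CPM in D6RA, 27.8 to 38.1 in D6DMSO, 88.3 to 119.7 in D3RA and 2.62 to 3.49 in D3DMSO.

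Fli1, an ETS transcription factor of blood and endothelial cells, had the lowest interaction among the genes named here. It was at 0.828, 1.43 and 0.877 CPM in D6RA, 23.6, 18.3 and 22.5 CPM in D6DMSO and 28.6, 32.6 and 37.9 CPM in D3RA, and had no counts in the 3 D3DMSO libraries. At day 3 its 497 counts in D3RA made it at least 189-fold higher than in D3DMSO, with 3 counts over the group as the floor. The interaction was -13.03 ± 0.43 (SE; limma adjusted p = 1.24e-12), and -12.12 when the count added before the logarithm was made proportional to library size, so that a 0 has the same value in every library. Where a group holds 3 counts or fewer, that second value is given for the same reason. Gata2, a zinc finger factor of blood progenitors and also of some neurons, was at 2.27 ± 0.0902 CPM in D6RA, 7.94 ± 0.432 in D6DMSO, 11.6 ± 2.75 in D3RA and 0.195 ± 0.17 in D3DMSO (mean ± SD, n = 3, as for all values in this form). Its day 6 difference was -1.8 ± 0.46 (SE; limma adjusted p = 0.00259) and its interaction -7.39 ± 0.65 (SE; limma adjusted p = 1.07e-07).

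Other vessel genes crossed as well. Tal1, a transcription factor needed for blood formation, had means of 0.588 CPM in D6RA, 16.1 in D6DMSO, 13.7 in D3RA and 1.05 in D3DMSO. Erg, a second ETS factor of endothelium, had 1.02 CPM in D6RA, 4.18 in D6DMSO, 10.6 in D3RA and 0.0684 in D3DMSO, and Cd34, a surface sialomucin of blood and vessel progenitors, had 1.63 CPM in D6RA, 7.12 in D6DMSO, 38.2 in D3RA and 0.16 in D3DMSO. All of these interactions were called. Some members did not cross back as far. Cdh5, the cadherin of endothelial junctions, had 5.62 CPM in D6RA, 7.18 in D6DMSO, 35.4 in D3RA and 1.72 in D3DMSO, and its day 6 difference did not pass the test (-0.34, limma adjusted p = 0.523). Pecam1, an adhesion molecule of endothelium, had 4.79 CPM in D6RA, 3.59 in D6DMSO, 22.6 in D3RA and 0.551 in D3DMSO and was narrowed with RA higher. Among the VEGF receptors, Kdr was at 8.64 CPM in D6RA, 124 in D6DMSO, 66.4 in D3RA and 46.8 in D3DMSO, and its day 3 difference did not pass the test (0.54, limma adjusted p = 0.111). Flt1 and Flt4 were widened with RA lower, Flt1 at 2.21 CPM in D6RA, 42.6 in D6DMSO, 11 in D3RA and 23.7 in D3DMSO. Etv2, an ETS factor that acts early in vessel formation, was widened with RA lower as well, at 0.0104 CPM in D6RA, 14.1 in D6DMSO, 0.534 in D3RA and 6.38 in D3DMSO.

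**Figure D4:**
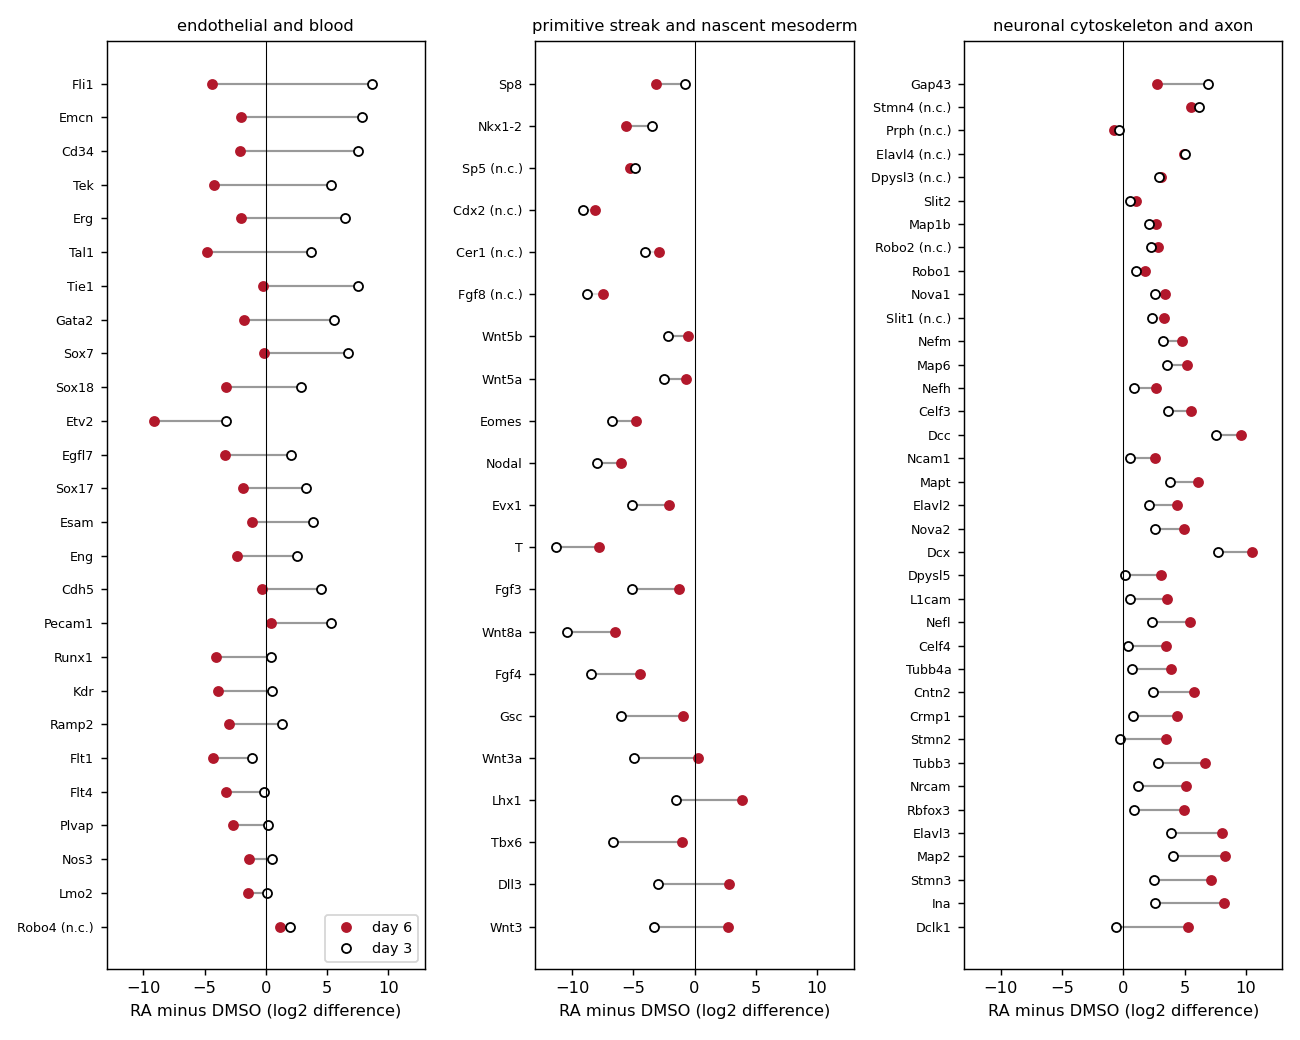
RA minus DMSO difference (log2) at day 6 (filled) and day 3 (open) for the measured members of 3 lists, ordered by interaction. "n.c." marks members whose interaction was not called. In the endothelial list all 26 lines run leftward to day 6, 25 of them called, in the streak list most start far below 0 at day 3, and in the neuronal list most run rightward from a positive start.

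Extracellular matrix genes also had interactions mostly below 0, but a smaller part of them crossed. Of 46 measured members, 35 were called below 0 (76.1%, against 23.1% over all genes) and 6 above (13%, against 25.4%). Their median was -1.91. Here 22 were reversed to RA lower (1655 of 14706 over all genes) and 2 to RA higher (1549 of 14706). In 18 reversed members both differences were called (7.79% over all genes). Another 10 were widened with RA lower (1112 of 14706 over all genes). RA was called higher in 23 members and lower in 13 at day 3 (62.1% of all genes, both directions together). Lamb1 and Nid2, for example, were lower with RA on both days (-3.84 and -2.75 at day 3, -5.35 and -4.29 at day 6). Col12a1, a collagen that associates with fibrils, was at 29.2 CPM in D6RA, 50.2 in D6DMSO, 97.4 in D3RA and 1.28 in D3DMSO. Col3a1, a fibrillar collagen, was at 4.56 CPM in D6RA, 7.51 in D6DMSO, 31.3 in D3RA and 0.452 in D3DMSO, and Col18a1, a basement membrane collagen, at 47.6 CPM in D6RA, 467 in D6DMSO, 187 in D3RA and 61 in D3DMSO. The interstitial collagen Col1a1 differed mainly at day 6, at 1.16 CPM in D6RA, 34.2 in D6DMSO, 1.34 in D3RA and 1.08 in D3DMSO. The 6 members above 0 included genes known from brain matrix. Ncan, a chondroitin sulfate proteoglycan of nervous tissue, was at 346, 349 and 365 CPM in D6RA, 6.36, 6.76 and 5.73 CPM in D6DMSO, 30.5, 36.5 and 30.6 CPM in D3RA and 15.3, 20.1 and 22 CPM in D3DMSO, with an interaction of 5.03 ± 0.18 (SE; limma adjusted p = 3.19e-12). Reln, the glycoprotein that guides migrating neurons, was reversed to RA higher, at 255 CPM in D6RA, 12.8 in D6DMSO, 52.7 in D3RA and 77.2 in D3DMSO. Fn1, fibronectin, had a higher level with DMSO on both days, at 319 CPM in D6RA, 766 in D6DMSO, 183 in D3RA and 1122 in D3DMSO, and was narrowed.

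Ankrd1 and Tgfbi, also among the largest reversals to RA lower, had low counts in D6RA and D3DMSO. Ankrd1, a muscle ankyrin repeat protein that responds to stretch, was at 0.0993, 0 and 0.125 CPM in D6RA, 47.7, 57 and 39.6 CPM in D6DMSO, 0.364, 1.63 and 1.37 CPM in D3RA and 0.138, 0.41 and 0 CPM in D3DMSO. The day 3 libraries overlapped, and the 12 counts in D3RA against 3 in D3DMSO give a ratio of 4.57 (95% counting interval 1.23 to 25.3). Its interaction was -11.81 ± 1.06 (SE; limma adjusted p = 1.25e-07), and -9.86 with the proportional count. Tgfbi, a matrix protein induced by TGF-beta, was at 0.0662, 0.0819 and 0.0939 CPM in D6RA, 15.4, 16.3 and 14.1 CPM in D6DMSO, 1.55, 1.63 and 5.48 CPM in D3RA and 0.414, 0 and 0 CPM in D3DMSO. Its day 3 ratio, on 34 counts in D3RA against 3 in D3DMSO, was 13 with an interval of 4.08 to 65.9, and its interaction was -11.31 ± 0.87 (SE; limma adjusted p = 2.08e-08) (-9.69 with the proportional count). Counting intervals hold counting error only. Twist1, a helix-loop-helix factor of mesenchyme, was reversed too, at 0.297 ± 0.0449 CPM in D6RA, 32.7 ± 5.86 in D6DMSO, 4.09 ± 1.47 in D3RA and 0.935 ± 0.277 in D3DMSO, with an interaction of -8.71 ± 0.44 (SE; limma adjusted p = 1.42e-10).

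In the opposite direction, genes such as Dll1, Lhx1, Wnt3 and Dll3 were higher with DMSO at day 3 and higher with RA at day 6. Lhx1, Wnt3 and Dll3 are on the streak list, where 4 of 21 members were called as reversed to RA higher. So were 3 of 22 on the neural progenitor list. Over all genes it was 1549 of 14706, and the lists were not tested against that share. Dll1, a Notch ligand of both presomitic mesoderm and newborn neurons, was at 271, 284 and 282 CPM in D6RA, 10.4, 8.61 and 9.54 CPM in D6DMSO, 61.2, 58.6 and 73.1 CPM in D3RA and 111, 230.1 and 166 CPM in D3DMSO. The 2 treatments did not overlap on either day. The day 6 difference was 4.88 ± 0.19 (SE; limma adjusted p = 6.48e-13), the day 3 difference -1.34 ± 0.19 (SE; limma adjusted p = 9.98e-06) and the interaction 6.21 ± 0.26 (SE; limma adjusted p = 1.89e-11). Lhx1, a LIM homeobox factor of early mesoderm and of spinal interneurons, was at 169.5, 173 and 162 CPM in D6RA, 8.64, 11.1 and 14.7 CPM in D6DMSO, 20.1, 30.9 and 24.2 CPM in D3RA and 58.8, 67.7 and 95.4 CPM in D3DMSO. Its interaction was 5.45 ± 0.30 (SE; limma adjusted p = 3.47e-10). Wnt3, a secreted Wnt ligand of the streak, was at 23.2, 25.8 and 24.8 CPM in D6RA, 3.16, 3.78 and 3.81 CPM in D6DMSO, 3.1, 3.58 and 3.2 CPM in D3RA and 36.5, 29.1 and 36.6 CPM in D3DMSO. D6RA and D3DMSO were its high groups, and its interaction was 6.08 ± 0.22 (SE; limma adjusted p = 2.40e-12). Dll3, a divergent Notch ligand, crossed in the same way, at 40.6 CPM in D6RA, 5.87 in D6DMSO, 10.3 in D3RA and 82.5 in D3DMSO.

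The 4 genes with the largest interactions of this class by the naming rule, with both differences called and at least 10 CPM in 1 group, were Stk32b, Trim67, Kcnc1 and Pid1. Stk32b encodes a serine/threonine kinase and was at 11.3, 10.7 and 12.6 CPM in D6RA, 0.351, 0.546 and 0.481 CPM in D6DMSO, 0.364, 0.977 and 0.457 CPM in D3RA and 2.49, 2.46 and 5.11 CPM in D3DMSO, with an interaction of 6.85 ± 0.58 (SE; limma adjusted p = 5.92e-08). Trim67, a tripartite motif protein of axon guidance, was at 62.5, 65.9 and 65.1 CPM in D6RA, 1.18, 1.18 and 1.18 CPM in D6DMSO, 3.1, 2.93 and 3.2 CPM in D3RA and 4.97, 5.75 and 10.8 CPM in D3DMSO, with an interaction of 6.84 ± 0.46 (SE; limma adjusted p = 3.73e-09). The rise in the RA arm was the larger part for Trim67 (4.33, limma adjusted p = 6.92e-09, against -2.51, limma adjusted p = 6.71e-06 in the DMSO arm, D6 over D3). Kcnc1, a fast voltage-gated potassium channel, was at 12.5 ± 0.459 CPM in D6RA, 0.463 ± 0.161 in D6DMSO, 1.31 ± 0.633 in D3RA and 6.25 ± 3.98 in D3DMSO, and its interaction was 6.79 ± 0.68 (SE; limma adjusted p = 4.55e-07). Pid1, an adaptor protein with a phosphotyrosine-binding domain, was at 57.2 ± 4.07 CPM in D6RA, 1.05 ± 0.158 in D6DMSO, 12.8 ± 0.635 in D3RA and 25.3 ± 4.95 in D3DMSO, and its interaction was 6.7 ± 0.31 (SE; limma adjusted p = 5.85e-11). For Pid1 the DMSO arm changed more, with D6DMSO below D3DMSO (-4.56, limma adjusted p = 9.37e-11).

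Neuronal genes had RA-high differences that widened. Of 37 measured genes of the neuronal cytoskeleton and axon, 30 were called above 0 and 1 below. In 28 the class was widened with RA higher (1416 of 14706 over all genes). The median was 2.31, and the shares above and below 0 were 81.1 and 2.7%, against 25.4 and 23.1% over all genes. D6RA was higher than D3RA in 33 of the 37 (37.2% over all genes). D6DMSO was lower than D3DMSO in 17 and higher in 11 (28.1 and 28.3% over all genes). Of 49 genes of the synapse and excitability, 37 were called above 0 and 3 below, with a median of 2.28. Their shares were 75.5 and 6.12%, against 25.4 and 23.1% over all genes. Here 24 were widened with RA higher and 13 were reversed to RA higher (1416 and 1549 of 14706 over all genes). All but 1 of the 49 were called higher with RA at day 6 (65.8% of all genes, both directions together). D6RA was higher than D3RA in 41 of the 49 (37.2% over all genes). D6DMSO was lower than D3DMSO in 16 and higher in 16 (28.1 and 28.3% over all genes). The neuronal markers Tubb3, Dcx, Elavl3 and Snap25, all 4 measured, summed to 1756 to 1836 CPM in D6RA, 10.2 to 12.9 in D6DMSO, 419.1 to 489.2 in D3RA and 41.1 to 52.6 in D3DMSO.

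In Dclk1, Dner, Rab3c, Garem2 and Scrt2, named for large interactions, D6DMSO lay below D3DMSO while D6RA lay above D3RA. Over the 1416 genes widened with RA higher, both arms had called changes in opposite directions in 303. Dclk1, a microtubule-associated kinase of migrating neurons, was at 248, 246 and 238 CPM in D6RA, 7.59, 6.76 and 4.99 CPM in D6DMSO, 31.1, 31.9 and 38.4 CPM in D3RA and 57.3, 44.3 and 55.5 CPM in D3DMSO. It was reversed, with an interaction of 5.88 ± 0.19 (SE; limma adjusted p = 9.55e-13). Dner, a transmembrane Notch ligand of neurons, was at 130.2, 126 and 125 CPM in D6RA, 0.395, 0.21 and 0.219 CPM in D6DMSO, 14.9, 18.6 and 16.4 CPM in D3RA and 4, 5.13 and 4.03 CPM in D3DMSO. Its interaction of 6.89 ± 0.35 (SE; limma adjusted p = 1.23e-10) joined a called rise in the RA arm (2.93, limma adjusted p = 2.53e-08) to a called fall in the DMSO arm (-3.96, limma adjusted p = 1.66e-09). Rab3c, a small GTPase of synaptic vesicles, was at 119.8, 105 and 106 CPM in D6RA, 0.307, 0.084 and 0.0875 CPM in D6DMSO, 9.56, 12.1 and 7.76 CPM in D3RA and 2.76, 1.64 and 2.01 CPM in D3DMSO, with an interaction of 7.3 ± 0.62 (SE; limma adjusted p = 7.18e-08). Garem2, an adaptor of growth factor signalling, was at 27.4 ± 1.02 CPM in D6RA, 0.285 ± 0.209 in D6DMSO, 2.44 ± 0.439 in D3RA and 1.63 ± 0.228 in D3DMSO. Its day 3 difference was not called (0.58, limma adjusted p = 0.221), and its interaction was 6.17 ± 0.57 (SE; limma adjusted p = 1.73e-07).

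Scrt2, a zinc finger repressor of newborn neurons, was at 72.6, 77.7 and 80.7 CPM in D6RA, 0, 0.084 and 0 CPM in D6DMSO, 5.1, 5.54 and 7.76 CPM in D3RA and 0.138, 0.41 and 0.465 CPM in D3DMSO. With 6667 counts in D6RA against 2 in D6DMSO, the day 6 ratio was 2675 (counting interval 740.3 to 22096). The interaction was 7.03 ± 0.72 (SE; limma adjusted p = 5.56e-07), and 5.12 with the proportional count. Scn9a, a voltage-gated sodium channel, was at 29.6 ± 1.07 CPM in D6RA, 0.274 ± 0.0287 in D6DMSO, 4.64 ± 2.06 in D3RA and 5.71 ± 3.18 in D3DMSO. Its day 3 difference was close to 0 (-0.18, limma adjusted p = 0.718), so its place among the reversed genes is not firm, while its interaction was 6.83 ± 0.57 (SE; limma adjusted p = 4.89e-08). Grin2b, an NMDA receptor subunit, had 22 CPM in D6RA, 0.318 in D6DMSO, 0.212 in D3RA and 0.442 in D3DMSO, and Slc17a6, the vesicular glutamate transporter VGLUT2, had 31.7 CPM in D6RA, 0.0871 in D6DMSO, 0.569 in D3RA and 0 in D3DMSO. Gad1, which makes GABA, had 44.5 CPM in D6RA, 1.58 in D6DMSO, 3.31 in D3RA and 6.93 in D3DMSO. Tubb3, the neuronal beta-tubulin, had 677 CPM in D6RA, 6.67 in D6DMSO, 286 in D3RA and 40.1 in D3DMSO, and Dcx, which stabilises microtubules in young neurons, had 831 CPM in D6RA, 0.603 in D6DMSO, 107 in D3RA and 0.465 in D3DMSO. All 5 of these interactions were called.

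A few neuronal genes went against this. Gap43, a growth cone protein, was narrowed with RA higher. It was at 62.7, 57.4 and 59.7 CPM in D6RA, 9.73, 7.31 and 9.85 CPM in D6DMSO, 139, 174 and 142 CPM in D3RA and 1.24, 1.03 and 1.24 CPM in D3DMSO, with an interaction of -4.17 ± 0.21 (SE; limma adjusted p = 9.91e-11). Gad2, the second GABA-making enzyme, was at 58.9 ± 2.6 CPM in D6RA, 17.2 ± 3.44 in D6DMSO, 9.73 ± 1.61 in D3RA and 0.84 ± 0.695 in D3DMSO. Its interaction was -1.88 ± 0.65 (SE; limma adjusted p = 0.0253), and the call was lost without D3DMSO replicate 1, D3DMSO replicate 3, D3RA replicate 2 or D6DMSO replicate 2 and in limma without the trend, where over all alternatives the adjusted p ranged from 0.00183 to 0.0632. Among neuronal transcription factors the interactions were more often not called. Of 36 measured, 15 were called above 0 (41.7%, against 25.4% over all genes) and 4 below (11.1%, against 23.1%), with a median of 0.59. In 10 of the 36 at least 1 group had no counts (median 1.17 with those groups set to the floor). Myt1, a zinc finger factor of neuronal differentiation, had 284 CPM in D6RA, 0.374 in D6DMSO, 43.3 in D3RA and 0.967 in D3DMSO. Neural progenitor genes were split, with 9 of 22 called above 0 (40.9%, against 25.4% over all genes) and 6 below. The 27.3% below was near the 23.1% over all genes, and the median was 0.35. Fabp7, a fatty acid binding protein of radial glia, was widened at 422 CPM in D6RA, 0.418 in D6DMSO, 170.3 in D3RA and 7.72 in D3DMSO. Pax6, a paired-box factor of neural progenitors, was narrowed at 97.8 CPM in D6RA, 6.98 in D6DMSO, 149 in D3RA and 0.769 in D3DMSO. Dbx1, a homeobox factor of ventral spinal progenitors, was at 1.19 ± 0.162 CPM in D6RA, 2.01 ± 0.361 in D6DMSO and 37.6 ± 7.09 in D3RA, with no counts in D3DMSO. It was at least 214-fold higher with RA at day 3, its day 6 difference was not called (-0.74, limma adjusted p = 0.206), and its interaction was -9.57 ± 0.71 (SE; limma adjusted p = 1.23e-08) (-8.76 with the proportional count).

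Cardiac and mesenchymal genes had DMSO-high differences that widened or appeared. Of 24 measured factors of cardiac and paraxial mesoderm, 18 were called below 0 (75%, against 23.1% over all genes) and 1 above. Their median was -3.51. Of these, 9 were widened with RA lower and 8 reversed to RA lower (1112 and 1655 of 14706 over all genes). D6DMSO was higher than D3DMSO in 18 of the 24 (28.3% over all genes). Of 17 sarcomere and calcium handling genes, 11 were called below 0 (64.7%, against 23.1% over all genes) and 2 above. Their median was -2.48, and 9 of the 17 were widened with RA lower (1112 of 14706 over all genes). The cardiac markers Tnnt2, Myl7, Actc1 and Myh6 summed to 0.563 to 0.656 CPM in D6RA, 77 to 104.8 in D6DMSO, 3.20 to 3.58 in D3RA and 11.3 to 16.6 in D3DMSO. Tnnt2, cardiac troponin T, had 0.0351 CPM in D6RA, 4.99 in D6DMSO, 0 in D3RA and 0.188 in D3DMSO. The cardiogenic GATA factors Gata4 and Gata6 had 0.0917 CPM in D6RA, 18.3 in D6DMSO, 0.699 in D3RA and 7.47 in D3DMSO and 0.426 CPM in D6RA, 43.4 in D6DMSO, 1.68 in D3RA and 14 in D3DMSO. Their interactions and that of Tnnt2 were called.

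Actc1, cardiac alpha-actin, was at 0.0331, 0.041 and 0.0313 CPM in D6RA, 61.6, 69.3 and 56.8 CPM in D6DMSO, 2.64, 3.26 and 2.74 CPM in D3RA and 12, 10.7 and 9.45 CPM in D3DMSO. RA was the low group on both days and lower still at day 6. Its 3 counts in D6RA against 4353 in D6DMSO put DMSO over RA at 1808 (counting interval 618.2 to 8770.3), and its interaction was -8.38 ± 0.30 (SE; limma adjusted p = 3.08e-12) (-6.65 with the proportional count). Acta2, smooth muscle alpha-actin, was at 1.23, 1.89 and 1.6 CPM in D6RA, 276, 322 and 274 CPM in D6DMSO, 26.1, 30.3 and 29.7 CPM in D3RA and 31.6, 39.2 and 30.7 CPM in D3DMSO. Its day 3 difference was not called (-0.23, limma adjusted p = 0.255), and its interaction was -7.31 ± 0.24 (SE; limma adjusted p = 1.23e-12). Meox1, a homeobox factor of somites, was at 0.358 ± 0.133 CPM in D6RA, 109.5 ± 21.8 in D6DMSO, 3.92 ± 0.685 in D3RA and 6.04 ± 1.37 in D3DMSO, with an interaction of -7.66 ± 0.69 (SE; limma adjusted p = 1.30e-07). Its day 3 difference was not called (-0.58, limma adjusted p = 0.319). Cd36, a fatty acid transporter and scavenger receptor, was at 0.0221 ± 0.0382 CPM in D6RA, 36.3 ± 2.78 in D6DMSO, 0.808 ± 0.439 in D3RA and 2.9 ± 1.34 in D3DMSO. Its ratio of DMSO over RA at day 6 was 1572 on 2 counts in D6RA, with an interval of 434.7 to 12986, and its interaction was -8.62 ± 0.85 (SE; limma adjusted p = 3.96e-07) (-6.16 with the proportional count).

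Smooth muscle and mesenchyme genes were called below 0 in 16 of 27 (59.3%, against 23.1% over all genes) and above in 6 (22.2%, against 25.4%). The mesenchymal markers Pdgfra, Acta2 and Col1a1 summed to 7.78 to 10.3 CPM in D6RA, 377.8 to 477.1 in D6DMSO, 31.2 to 34.5 in D3RA and 109.5 to 183.9 in D3DMSO. Tagln, an actin-binding protein of smooth muscle, was reversed at 3.69 CPM in D6RA, 154 in D6DMSO, 19.2 in D3RA and 8.97 in D3DMSO. Pdgfra, a growth factor receptor of mesoderm, was an exception at 6.5 ± 0.538 CPM in D6RA, 96.4 ± 19.5 in D6DMSO, 3.14 ± 0.423 in D3RA and 115 ± 34.1 in D3DMSO. It was narrowed, with an interaction of 1.21 ± 0.30 (SE; limma adjusted p = 0.00332), and the call was lost with thinned counts and with voom weights, where the adjusted p over all alternatives ranged from 0.000237 to 0.0859. Hcn4, the pacemaker channel, was higher with RA at day 6, at 18.2 ± 1.09 CPM in D6RA, 6.59 ± 0.416 in D6DMSO, 4.66 ± 2.33 in D3RA and 4.34 ± 1.1 in D3DMSO, with an interaction of 1.42 ± 0.43 (SE; limma adjusted p = 0.0123). Its day 3 difference was close to 0 (0.04, limma adjusted p = 0.916). Krt18, a keratin of simple epithelia, was at 0.397, 0.574 and 0.376 CPM in D6RA, 206, 233 and 202 CPM in D6DMSO, 3.64, 5.86 and 6.85 CPM in D3RA and 41.7, 23.2 and 29.3 CPM in D3DMSO, with an interaction of -6.36 ± 0.33 (SE; limma adjusted p = 1.93e-10).

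Many RA-responsive and Hox genes had RA-high differences that narrowed. These were 7 of 17 measured genes of the RA response, 10 of 14 anterior Hox genes and 5 of 10 on the posterior Hox list. Over all genes it was 632 of 14706. Of 14 measured anterior Hox genes (paralog groups at the 3′ end of the clusters), 12 were called below 0 and 0 above, with a median of -2.26. The share below 0 was 85.7%, against 23.1% over all genes. D6DMSO was higher than D3DMSO in 12 of the 14 (28.3% over all genes), whereas D6RA was lower than D3RA in 3 (32.1% over all genes). The list named posterior Hox held measured genes from Hoxa6 to Hoxd9, most of them of central paralog groups. Of its 10 genes, 9 were called below 0 (90%, against 23.1% over all genes) and 0 above. D6DMSO was higher than D3DMSO in 9 (28.3% over all genes). Of 17 genes of the RA response, 14 were called below 0 (82.4%, against 23.1% over all genes) and 2 above (11.8%, against 25.4%). Their median was -2.23. Hoxc5 was at 38.3, 34.8 and 41.8 CPM in D6RA, 7.32, 6.63 and 6.52 CPM in D6DMSO, 80.8, 72.3 and 73.1 CPM in D3RA and 0.138, 1.23 and 0.155 CPM in D3DMSO, with an interaction of -5.08 ± 0.72 (SE; limma adjusted p = 2.11e-05). Hoxb6 was at 229.6, 243 and 230.5 CPM in D6RA, 12.5, 10.3 and 13.8 CPM in D6DMSO, 172, 186 and 195 CPM in D3RA and 0, 1.03 and 0.62 CPM in D3DMSO, with an interaction of -4.66 ± 0.91 (SE; limma adjusted p = 0.000467). In both genes RA remained the high group at day 6, and the DMSO level was higher at day 6 than at day 3 (4.09, limma adjusted p = 4.73e-06 for Hoxc5 and 5.0, limma adjusted p = 6.62e-06 for Hoxb6).

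Nr2f1, the orphan nuclear receptor COUP-TF1, had the largest interaction among the narrowed genes named here. It was at 107, 115 and 114 CPM in D6RA, 58.8, 45.5 and 55 CPM in D6DMSO, 97.2, 103 and 114 CPM in D3RA and 0, 0 and 0.155 CPM in D3DMSO. The RA level did not differ between the days by the test (0.1, limma adjusted p = 0.799). The interaction was -8.71 ± 0.44 (SE; limma adjusted p = 1.36e-10), and -8.12 with the proportional count. Its 1633 counts in D3RA against 1 in D3DMSO put the day 3 ratio at 1867 (counting interval 334.7 to 73797). Ednrb, an endothelin receptor of neural crest, was at 194, 192 and 190.1 CPM in D6RA, 21, 22.2 and 19.2 CPM in D6DMSO, 159, 172 and 139 CPM in D3RA and 0.276, 0.205 and 0.155 CPM in D3DMSO, with an interaction of -5.86 ± 0.21 (SE; limma adjusted p = 2.44e-12). Its RA level did not differ between the days by the test either (0.3, limma adjusted p = 0.0798).

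For some genes of the RA response, such as Cyp26b1 and Rarb, the RA level itself was lower at day 6. Cyp26b1, which degrades RA, was at 9, 8.97 and 8.23 CPM in D6RA, 1.23, 1.05 and 0.832 CPM in D6DMSO, 149, 149.8 and 205 CPM in D3RA and 0.138, 0 and 0 CPM in D3DMSO. D6RA was below D3RA by the test (-4.25, limma adjusted p = 6.98e-08). Its interaction was -7.39 ± 0.55 (SE; limma adjusted p = 1.39e-08) (-6.97 with the proportional count), and its day 3 ratio, on 2548 counts in D3RA against 1 in D3DMSO, was 2914 with an interval of 522.5 to 115122. The related Cyp26a1 was higher with DMSO on both days, at 0.0923 CPM in D6RA, 18.4 in D6DMSO, 13.2 in D3RA and 81.3 in D3DMSO, and was widened. Rarb, an RA receptor that RA induces, was narrowed at 116 CPM in D6RA, 39.7 in D6DMSO, 263 in D3RA and 1.59 in D3DMSO. Crabp2, which carries RA to its receptors, was at 127 CPM in D6RA, 163 in D6DMSO, 917 in D3RA and 91.7 in D3DMSO, and Nr2f2, the orphan receptor COUP-TF2, was at 39.6 CPM in D6RA, 56.6 in D6DMSO, 25.8 in D3RA and 0.384 in D3DMSO. Both were called higher with RA at day 3, and their day 6 differences did not pass the test (-0.35, limma adjusted p = 0.0517 and -0.51, limma adjusted p = 0.244). Aldh1a2, the enzyme that makes RA in mesoderm, was narrowed from the DMSO side. It was at 1.49, 1.89 and 1.53 CPM in D6RA, 32.8, 24.9 and 35 CPM in D6DMSO, 1.18, 0.651 and 0.457 CPM in D3RA and 188, 245 and 208 CPM in D3DMSO, with an interaction of 3.7 ± 0.37 (SE; limma adjusted p = 4.84e-07). Outside that list, Hk3, a hexokinase of myeloid cells, was at 1.79, 1.72 and 1.44 CPM in D6RA, 0.439, 0.084 and 0.131 CPM in D6DMSO and 75.5, 60.6 and 65.3 CPM in D3RA, with no counts in D3DMSO. It was at least 441-fold higher with RA at day 3 and had an interaction of -6.59 ± 1.00 (SE; limma adjusted p = 4.45e-05) (-6.47 with the proportional count).

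In 11 of 21 streak genes the DMSO-high difference narrowed (774 of 14706 over all genes). The primitive streak and nascent mesoderm list had 21 measured members. At day 3 all 21 were called lower with RA (62.1% of all genes were called, both directions together). The interaction was called above 0 in 15 (71.4%, against 25.4% over all genes) and below 0 in 2 (9.52%, against 23.1%). The median was 3.03, and 4 members were reversed to RA higher (1549 of 14706 over all genes). D6DMSO was lower than D3DMSO in 20 of the 21 (28.1% over all genes). The brachyury gene T, which defines nascent mesoderm, was at 0.115 CPM in D6RA, 25.4 in D6DMSO, 0.278 in D3RA and 874 in D3DMSO. Tbx6, a T-box factor of presomitic mesoderm, was at 1.82, 2.09 and 1.88 CPM in D6RA, 3.9, 4.03 and 3.94 CPM in D6DMSO, 1.09, 0.326 and 0.913 CPM in D3RA and 56.2, 130.3 and 90.6 CPM in D3DMSO. The RA libraries stayed below the DMSO libraries at day 6, by a smaller margin, and the interaction was 5.63 ± 0.45 (SE; limma adjusted p = 3.61e-08). Gsc, the homeobox factor of the organizer, was at 0.132, 0.0819 and 0.0939 CPM in D6RA, 0.219, 0.126 and 0.306 CPM in D6DMSO, 0.364, 0 and 0 CPM in D3RA and 18.6, 17.9 and 12.6 CPM in D3DMSO, with an interaction of 5.1 ± 0.61 (SE; limma adjusted p = 3.39e-06). Its day 6 libraries overlapped, and its day 6 difference was not called (-0.93, limma adjusted p = 0.0673). Sp8, a zinc finger factor of limb and forebrain, went the other way, at 1.97 ± 0.221 CPM in D6RA, 17.7 ± 1.76 in D6DMSO, 25 ± 2.08 in D3RA and 42.2 ± 4.17 in D3DMSO, with an interaction of -2.41 ± 0.21 (SE; limma adjusted p = 1.00e-07).

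Snai1, a repressor of E-cadherin active in the streak, was at 1.56, 1.97 and 1.85 CPM in D6RA, 3.64, 3.99 and 3.41 CPM in D6DMSO, 0.364, 0 and 0.457 CPM in D3RA and 17.5, 20.5 and 17.2 CPM in D3DMSO, with an interaction of 4.65 ± 0.56 (SE; limma adjusted p = 3.47e-06). Peli3, an E3 ubiquitin ligase of the Pellino family, was at 7.28, 7.38 and 7.61 CPM in D6RA, 9.3, 10.7 and 10.1 CPM in D6DMSO, 1.64, 0.977 and 2.28 CPM in D3RA and 45.1, 74.3 and 51.4 CPM in D3DMSO, with an interaction of 4.61 ± 0.35 (SE; limma adjusted p = 1.99e-08). In both genes the RA level was higher and the DMSO level lower at day 6 than at day 3. The day 6 difference of Peli3 was not called (-0.43, limma adjusted p = 0.141). Fgf4, a growth factor of pluripotent cells and streak, was at 0.0331, 0.123 and 0 CPM in D6RA, 1.1, 1.13 and 0.832 CPM in D6DMSO and 33.3, 47.6 and 44 CPM in D3DMSO, with no counts in D3RA. At day 3 DMSO was at least 220.7-fold higher than RA, and the interaction was 4.01 ± 0.91 (SE; limma adjusted p = 0.0017) (5.58 with the proportional count).

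**Figure D5:**
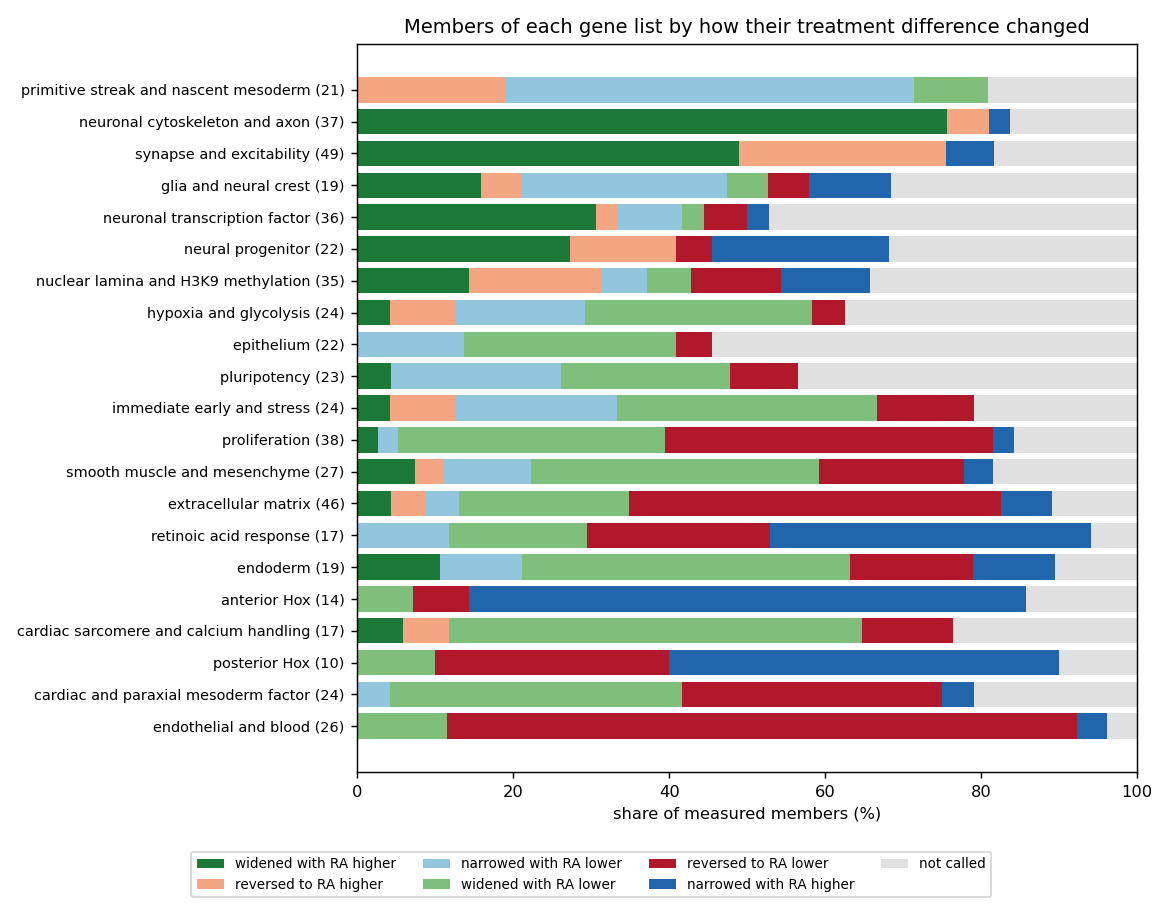
Share of the measured members of 21 gene lists (number measured in brackets, 1 bar per list) in each class of called interaction, ordered by median interaction from the highest at the top. The endothelial and blood bar is mostly reversed to RA lower (21 of 26), the anterior Hox bar mostly narrowed with RA higher (10 of 14) and the neuronal cytoskeleton bar mostly widened with RA higher (28 of 37).

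Proliferation genes shifted by small amounts in 1 direction. Of 38 measured, 30 were called below 0 (78.9%, against 23.1% over all genes) and 2 above, with a median of -0.67. RA was called lower in 30 and higher in 5 at day 6, and lower in 10 and higher in 11 at day 3. Over all genes, 65.8% were called at day 6 and 62.1% at day 3, both directions together. Cdk1, the mitotic kinase, was at 80.7 CPM in D6RA, 175 in D6DMSO, 230.2 in D3RA and 219.5 in D3DMSO. Top2a, the topoisomerase of dividing cells, was at 857 CPM in D6RA, 1309.6 in D6DMSO, 1756 in D3RA and 1642 in D3DMSO. The 2 above 0 were the S-phase factor E2f1 and the inhibitor Cdkn1a. Cdkn1a, p21, was at 4.11 ± 0.36 CPM in D6RA, 8.94 ± 2.12 in D6DMSO, 1.04 ± 0.363 in D3RA and 7.1 ± 0.159 in D3DMSO, with an interaction of 1.57 ± 0.38 (SE; limma adjusted p = 0.00271), a call that was lost with thinned counts (adjusted p = 0.603). Gadd45g, a growth arrest gene also expressed in newborn neurons, was narrowed at 90.2 ± 6.22 CPM in D6RA, 8.39 ± 0.721 in D6DMSO, 45.7 ± 2.14 in D3RA and 0.689 ± 0.522 in D3DMSO, with an interaction of -2.7 ± 0.47 (SE; limma adjusted p = 0.000153).

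In the immediate early and stress list, 8 of 24 were called above 0 (33.3%, against 25.4% over all genes) and 11 below (45.8%, against 23.1%). Chac1, a glutathione-degrading enzyme of the amino acid response, was at 84.3 CPM in D6RA, 107 in D6DMSO, 6.13 in D3RA and 90.5 in D3DMSO, and Sesn2, a leucine sensor, at 171 CPM in D6RA, 195 in D6DMSO, 15.2 in D3RA and 100.2 in D3DMSO. Both were narrowed with RA lower, and D6RA was called higher than D3RA for each. Ddit4, an inhibitor of mTORC1, was at 49, 54.8 and 52.4 CPM in D6RA, 38.1, 40.9 and 35.6 CPM in D6DMSO, 10.8, 6.84 and 7.76 CPM in D3RA and 158, 140.2 and 101 CPM in D3DMSO, and was reversed with an interaction of 4.4 ± 0.25 (SE; limma adjusted p = 4.89e-10). The immediate early genes Fos and Junb had 6.19 CPM in D6RA, 49.5 in D6DMSO, 19.5 in D3RA and 26 in D3DMSO and 2.8 CPM in D6RA, 31.6 in D6DMSO, 7.05 in D3RA and 15.1 in D3DMSO, both widened with RA lower. Hspa1a, an inducible heat shock protein with a near-identical copy in Hspa1b, so that its counts are uncertain, was at 0.397 ± 0.047 CPM in D6RA, 1.6 ± 0.229 in D6DMSO, 1.33 ± 0.835 in D3RA and 0.746 ± 0.477 in D3DMSO, with an interaction of -2.84 ± 0.73 (SE; limma adjusted p = 0.00411).

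Of 24 hypoxia and glycolysis genes, 7 were called above 0 (29.2%, against 25.4% over all genes) and 8 below (33.3%, against 23.1%), shares near those of all genes. Pfkp, the platelet phosphofructokinase, was at 82.6, 87.1 and 84.4 CPM in D6RA, 148, 179.8 and 135 CPM in D6DMSO, 11.3, 12.1 and 13.2 CPM in D3RA and 174, 184 and 146 CPM in D3DMSO. D3RA was its low group, and its interaction was 2.91 ± 0.17 (SE; limma adjusted p = 7.91e-10). Car9, a hypoxia-induced carbonic anhydrase, was at 0.14 ± 0.0354 CPM in D6RA, 8.85 ± 1.06 in D6DMSO, 0.0607 ± 0.105 in D3RA and 1.08 ± 0.486 in D3DMSO, with an interaction of -3.4 ± 0.66 (SE; limma adjusted p = 0.000426) (-2.35 with the proportional count). Slc2a1, the glucose transporter GLUT1, was reversed at 79.6 CPM in D6RA, 211 in D6DMSO, 525 in D3RA and 239 in D3DMSO.

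Pluripotency genes were mostly called lower with RA on both days, in 18 of 23 at day 3 and in 21 at day 6. Over all genes, 62.1% were called at day 3 and 65.8% at day 6, both directions together. The interactions of the pluripotency genes were divided, 6 called above 0 and 7 below (26.1 and 30.4%, near the 25.4 and 23.1% over all genes). The median interaction of -0.41 turned to 0.49 with the proportional count. Nr0b1, a nuclear receptor of pluripotent cells, was at 0.213 ± 0.106 CPM in D6RA, 3.06 ± 0.52 in D6DMSO, 1.7 ± 0.112 in D3RA and 1.89 ± 1.22 in D3DMSO, with an interaction of -4.0 ± 0.62 (SE; limma adjusted p = 5.60e-05) and a day 3 difference near 0 (0.14, limma adjusted p = 0.805). Of 22 epithelial genes, 3 were called above 0 (13.6%, against 25.4% over all genes) and 7 below (31.8%, against 23.1%). Their median of -0.28 (-0.47 with a group without counts set to the floor) turned to 0.09 with the proportional count. Grhl3, an epithelial transcription factor, was at 0.129 ± 0.0325 CPM in D6RA, 0.907 ± 0.33 in D6DMSO, 0.243 ± 0.23 in D3RA and 9.95 ± 3.51 in D3DMSO. Its interaction was 2.24 ± 0.76 (SE; limma adjusted p = 0.0217), a call lost without D3DMSO replicate 2, D3RA replicate 2, D6DMSO replicate 3 or D6RA replicate 2 (highest adjusted p = 0.059). Of 19 endoderm genes, 4 were called above 0 (21.1%, against 25.4% over all genes) and 13 below (68.4%, against 23.1%). Cxcr4, a chemokine receptor of endoderm and also of neurons, was widened at 122 ± 2.22 CPM in D6RA, 6.57 ± 1.14 in D6DMSO, 35.4 ± 3.33 in D3RA and 24.5 ± 2.13 in D3DMSO, with an interaction of 3.69 ± 0.16 (SE; limma adjusted p = 3.50e-11). Of 19 glia and neural crest genes, 9 were called above 0 (47.4%, against 25.4% over all genes, and 5 genes with thinned counts) and 4 below (21.1%, against 23.1%). Of the 9, 5 were narrowed with RA lower, 3 widened with RA higher and 1 reversed to RA higher (774, 1416 and 1549 of 14706 over all genes). The median day 6 difference of the list was -0.16. Foxd3, a factor of neural crest and pluripotent cells, was at 0.445 ± 0.0845 CPM in D6RA, 0.752 ± 0.236 in D6DMSO, 0.169 ± 0.163 in D3RA and 5.49 ± 3.53 in D3DMSO, with an interaction of 3.32 ± 0.60 (SE; limma adjusted p = 0.000255) (3.56 with the proportional count). Its day 6 difference was not called (-0.71, limma adjusted p = 0.154).

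Genes of the nuclear lamina and of H3K9 methylation, the subject of the chromatin samples of the series, had interactions between -1.61 and 1.30. Of 35 measured, 13 were called above 0 (37.1%, against 25.4% over all genes; 8 genes without D6RA replicate 3) and 10 below (28.6%, against 23.1%), with a median of 0.20. Kdm4b, a demethylase of H3K9, was at 102, 108 and 106 CPM in D6RA, 46.8, 50.8 and 56.4 CPM in D6DMSO, 56.5, 45 and 52.5 CPM in D3RA and 60.5, 64.2 and 58.7 CPM in D3DMSO, with an interaction of 1.3 ± 0.15 (SE; limma adjusted p = 1.65e-06). The related Kdm4a and the demethylase Phf8 were at 250.4 CPM in D6RA, 157 in D6DMSO, 114 in D3RA and 126 in D3DMSO and 78.1 CPM in D6RA, 50.7 in D6DMSO, 33.7 in D3RA and 35 in D3DMSO. Both were called higher with RA at day 6, and their day 3 differences did not pass the test (-0.15, limma adjusted p = 0.0632 and -0.05, limma adjusted p = 0.753). Prdm16, a histone methyltransferase family member, was narrowed at 27.7 ± 0.862 CPM in D6RA, 1.12 ± 0.429 in D6DMSO, 13.5 ± 3.04 in D3RA and 0.0977 ± 0.085 in D3DMSO. Its interaction was -1.61 ± 0.51 (SE; limma adjusted p = 0.0157) (-1.37 with the proportional count), and its call was lost with thinned counts (adjusted p = 0.64). Lmnb1, lamin B1, had an interaction of 0.33, limma adjusted p = 0.032, and Lbr, the lamin B receptor, one of -0.61, limma adjusted p = 0.000136. The methyltransferases Ehmt1 and Ehmt2, which place H3K9me2, were not called (-0.19, limma adjusted p = 0.121 and -0.08, limma adjusted p = 0.616).

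Across the lists, markers of other cell types moved with the treatments and days, and their part in each result was not tested. The pluripotency markers Pou5f1 and Nanog, 2 of 3 measured, summed to 0.0313 to 0.328 CPM in D6RA, 52.1 to 64.4 in D6DMSO, 0.546 to 4.11 in D3RA and 412.8 to 927 in D3DMSO. Of the blood markers Gata1, Hbb-bh1 and Klf1, 0 of 3 were found by symbol among the genes of the deposited table. The same held for the endoderm markers Afp, Ttr and Foxa2 (0 of 3).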

How the data were processed

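The RNA libraries number 15, with 3 each for D6RA, D6DMSO, D3RA, D3DMSO and D0. They were made with a stranded total RNA kit after removal of ribosomal RNA and sequenced single end, 75 bases, per the labels. The tools named are STAR 2.6.0c, Trimmomatic 0.32, limma, featureCounts and edgeR, with the mm9 build, per the submitters' processing notes, without a link from tool to table. The authors deposited log2 values for 14717 Ensembl IDs, and 14228 of these have a symbol here.

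After undoing the log2 and taking off 0.5, 100% of the values lay within 0.05 of whole counts. These recovered counts, divided by library sizes that follow the deposited scale, give the CPM in the text. Genes were tested by limma (version 3.58.1, under R 4.3.3) with a variance trend, on the log2 values as deposited, for every gene and all 15 libraries (5 group coefficients, 10 residual degrees of freedom), with Benjamini-Hochberg adjustment over the table. The procedure was tested on simulated data. Sorting, tables and plots used pandas 2.3.3 and matplotlib 3.10.9 under Python 3.11.15.

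The members, the 21 gene lists and the markers were chosen with earlier results of these data known, and some genes are on several lists. Genes were named by a rule. It takes the 4 markers, the 4 largest interactions of each of 6 classes (at least 10 CPM in the highest group, of the same class and called with the proportional count too, both differences called for reversals, predicted and unnamed genes left out) and the highest and lowest called member of each list at 1 CPM or more. Other genes named as list members were chosen after their values were seen. The alternatives were quantile and median-of-ratios scaling, a proportional count (2 on average), thinning to 2189364 counts, voom weights, filters, limma without the trend, the 12 libraries alone, 1 library left out at a time, and the replicate number as a block. Deviations of same-numbered libraries from their group means correlated at 0.337, 0.106 and 0.161 between D3RA and D3DMSO, while no other pair of groups passed 0.1 in any number. Libraries of different numbers, over all pairs of groups, ranged from -0.253 to 0.286. The share of the 4 abundant features also went with the number on day 3. A pairing of these 6 libraries by number is thus possible but not settled. A block within day 3 was therefore added after seeing the data.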

Additional observations from a re-analysis of the deposited data

Results flagged for a closer look

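Each result here was picked out because the treatment difference at day 6 was tested against that at day 3 and differed (limma, Benjamini-Hochberg adjusted p under 0.05 over all genes). The count of such genes was 7138, and the values below are the interactions on the log2 scale of the 58 named genes, whose tests stand in the report. No explanation for them was tested. Of the genes sorted as reversed to RA lower, the interaction was -13.03 for Fli1, -11.81 for Ankrd1, -11.77 for Hapln1, -11.31 for Tgfbi, -9.58 for Tek, -9.57 for Dbx1, -8.71 for Twist1, -7.39 for Gata2, -4.0 for Nr0b1 and -2.84 for Hspa1a, but the day 3 difference of Nr0b1 and Hspa1a and the day 6 difference of Dbx1 were not called. Of the genes sorted as reversed to RA higher, the interaction was 7.70 for Enpp2, 7.37 for Sez6, 6.85 for Stk32b, 6.84 for Trim67, 6.83 for Scn9a, 6.79 for Kcnc1, 6.70 for Pid1, 6.21 for Dll1, 6.08 for Wnt3, 5.88 for Dclk1, 5.45 for Lhx1, 4.4 for Ddit4 and 1.30 for Kdm4b, but the day 3 difference of Sez6 and Scn9a and the day 6 difference of Enpp2 were not called. Of the genes that were RA high and widened, the interaction was 7.30 for Rab3c, 7.03 for Scrt2, 6.89 for Dner, 6.17 for Garem2, 5.03 for Ncan, 3.69 for Cxcr4 and 1.42 for Hcn4. The day 3 difference of Garem2 and Hcn4 was not called. Of the genes that were RA low and widened, the interaction was -8.62 for Cd36, -8.38 for Actc1, -7.66 for Meox1, -7.31 for Acta2, -6.36 for Krt18, -3.40 for Car9 and -2.41 for Sp8. The day 3 difference of Meox1 and Acta2 was not called. Of the genes that were RA high and narrowed, the interaction was -8.71 for Nr2f1, -7.39 for Cyp26b1, -6.59 for Hk3, -5.86 for Ednrb, -5.08 for Hoxc5, -4.66 for Hoxb6, -4.17 for Gap43, -2.70 for Gadd45g, -1.88 for Gad2 and -1.61 for Prdm16. Of the genes that were RA low and narrowed, the interaction was 5.63 for Tbx6, 5.10 for Gsc, 4.65 for Snai1, 4.61 for Peli3, 4.01 for Fgf4, 3.70 for Aldh1a2, 3.32 for Foxd3, 2.91 for Pfkp, 2.24 for Grhl3, 1.57 for Cdkn1a and 1.21 for Pdgfra. The day 6 difference of Gsc, Peli3 and Foxd3 was not called.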

How the results depend on the processing

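Of 1383 interactions of the 58 named genes under 24 alternatives, 1370 kept their direction and call, 13 calls in 5 genes (Gad2, Grhl3, Pdgfra, Cdkn1a and Prdm16) were lost and 0 reversed. Thinning all libraries to the smallest one lowered the counts by construction, to 4717 called genes, 2449 above 0, 1601 widened, 748 narrowed and 664 reversed with both differences called. Leaving out each library in turn gave 6372 to 7261 called genes, 3296 to 3769 above 0, 3066 to 3492 below, 2238 to 2523 widened, 1177 to 1457 narrowed, 2873 to 3339 reversed and 980 to 1200 reversed with both called. The share of called genes above 0, 52.4%, was 46.1% under quantile normalization and 49.97% under median-of-ratios scaling, so the larger direction turned, and the cause was not tested. Of 1008 list counts, 25 moved by over 1.5 times, among them endothelial genes below 0 at 16 with a filter on the mean of 5 CPM, which drops members from the test, pluripotency genes above 0 at 10 with the proportional count, and glia and neural crest genes above 0 at 5 with thinned counts. List medians changed sign for pluripotency, epithelium and the hypoxia list. Tbx6, Gsc, Nr0b1, Scn9a and Hcn4 changed class under 1 to 5 alternatives. A filter of 1 CPM in 3 libraries removed no gene. The replicate block gave 7320 called genes. A replicate block within day 3 alone, chosen after seeing the data, gave 7967, and neither block lost a call of a named gene or moved a count by over 1.5 times. Of 12 libraries, 6 correlated best with their own number. Depth limits low genes at day 3, where 1 count is worth more CPM than at day 6. Over the alternatives the interaction ranged from 3.57 to 7.78 for Scrt2, from -8.50 to -4.92 for Actc1 and from -9.36 to -5.15 for Cd36.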
